A study of Mus musculus with 11 samples.

Results

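The 33 genes described here serve antigen presentation and the interferon response, and they fell into 3 groups by role. There were 8 genes of the major histocompatibility complex (MHC) class I pathway, B2m among them, 4 genes of MHC class II presentation and 21 genes that interferons are known to induce or to signal through. They were taken by gene symbol after Ensembl identifiers had been matched to the GENCODE annotation of GRCm38. All 33 were found among the 38293 genes of the count tables. All 33 also had 10 or more counts, summed over the mice, and so were among the 20589 genes tested.

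RNA from the hippocampus of 11 wild-type F1 mice, aged 14 weeks, was sequenced as 50 bp single-end reads. Their mothers were 129S6/SvEv females, mated to C57BL/6J males. The 6 CD F1 mice (3 males and 3 females) came from dams fed 2.3 mg folic acid per kg diet before conception, and the 5 FD F1 mice (2 males and 3 females) from dams fed 40 mg folic acid per kg diet for 6 weeks before mating. After mating every dam received the control diet, so that the offspring themselves were not fed the rich diet, and the comparison of FD with CD asks whether a maternal diet that ended at conception left a difference in the adult hippocampus. The labels name separate mice but not their litters, so that p-values measure the spread between these mice.

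Class I molecules present peptides from inside the cell, on nearly all nucleated cells, as a heavy chain (here H2-K1 and H2-D1) bound to the B2m light chain. Class II molecules present material taken up from outside and are made mainly by professional antigen-presenting cells, which in the brain sit for the most part in the meninges, the choroid plexus and around vessels. Type I interferons act through receptor-bound JAK kinases on a complex that holds STAT2 and IRF9 and binds the interferon-stimulated response element (ISRE) in front of target genes, while class I and class II promoters share X and Y boxes that bind RFX, CREB and NF-Y factors.

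The stretches of 160 bases in front of 6 of the members show these elements. B2m and H2-K1 stand for class I, H2-Aa for class II, and Isg15, Ifit3 and Bst2 for the interferon response. Capitals mark matches on either strand to the ISRE letters (GAAA and again GAAA after any 2 bases), to the interferon-gamma-activated site (GAS) letters TTCNNNGAA, to the Y-box letters ATTGG and to TGACG, the core of the X2 box. Sequences are from RefSeq (GRCm38.p6), end at the base before the annotated RNA start and run 5′ to 3′ on the strand of the gene.
B2m (chr2:122147527-122147686, + strand): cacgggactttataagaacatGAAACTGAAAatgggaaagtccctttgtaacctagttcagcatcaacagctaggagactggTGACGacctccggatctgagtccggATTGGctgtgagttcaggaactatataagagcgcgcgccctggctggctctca
H2-K1 (chr17:34000348-34000507, - strand): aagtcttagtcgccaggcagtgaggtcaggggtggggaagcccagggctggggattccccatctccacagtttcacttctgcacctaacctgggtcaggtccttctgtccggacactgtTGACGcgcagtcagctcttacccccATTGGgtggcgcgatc
H2-Aa (chr17:34287824-34287983, - strand): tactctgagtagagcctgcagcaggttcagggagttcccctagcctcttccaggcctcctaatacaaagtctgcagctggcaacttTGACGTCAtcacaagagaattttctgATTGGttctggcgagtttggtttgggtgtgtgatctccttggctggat
Isg15 (chr4:156200819-156200978, - strand): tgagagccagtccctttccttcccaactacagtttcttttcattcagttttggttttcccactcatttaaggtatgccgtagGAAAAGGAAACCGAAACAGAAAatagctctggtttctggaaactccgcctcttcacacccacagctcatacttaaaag
Ifit3 (chr19:34583369-34583528, + strand): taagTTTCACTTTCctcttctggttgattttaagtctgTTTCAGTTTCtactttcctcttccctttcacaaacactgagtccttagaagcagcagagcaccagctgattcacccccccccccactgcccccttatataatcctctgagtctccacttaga
Bst2 (chr8:71537473-71537632, - strand): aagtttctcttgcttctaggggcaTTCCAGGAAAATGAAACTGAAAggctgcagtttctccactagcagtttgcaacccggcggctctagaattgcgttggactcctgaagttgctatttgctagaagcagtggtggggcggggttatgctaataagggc

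In the B2m stretch the first capitals are an ISRE match, followed by an X2 and a Y match. H2-K1 has the same order of X2 and Y, and in H2-Aa the X2 matches overlap on both strands before the Y match. In Isg15, 3 ISRE matches run into each other, and Ifit3 has 2 in the reverse orientation. In Bst2 a GAS match overlaps the first of 2 ISRE matches, which overlap each other. Promoters (250 bases before to 50 after the start) were at hand for 25 of the 33 members. An ISRE match was in 10 of the 17 interferon-response genes with a promoter, in B2m alone of 6 class I genes and in 0 of 2 class II genes, against 3.44% of all 32851 promoters. A Y match was in 5 of the 6 class I and in both class II genes, against 37.41% of all promoters. An X2 match that began 25 bases before a Y match was in 36 of the 32851 promoters (0.11%), and B2m, H2-K1 and H2-D1 were among them; this distance was chosen after the members' promoters had been read. A GAS match was in 1 class I gene, Psmb8, and in 5 interferon-response genes, against 8.3% of all promoters. Matches are letters only, and the data hold no measure of binding.

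Total counts on genes ran from 11737554 to 44447006 per mouse. A level of 3 counts, set here as the floor, thus corresponded to between 0.0675 and 0.256 CPM (counts scaled to library size). Levels are given in CPM after scaling by edgeR's TMM method. Totals differed between CD and FD mice by less than mice of a group did among themselves (exact permutation test, two-sided, p = 0.597), and so did the share of reads without a gene (exact permutation test, p = 0.593). The share of reads without a unique alignment was lower in FD in all 5 pairs matched by sex and number, with a mean paired difference of -0.516 percentage points (p = 0.0625 by exact sign flips, and 5 pairs can give no smaller one). Without pairing its p was 0.494 (exact permutation test). CD male 3 had no FD partner and was in no pair. Among the markers of hippocampal neurons, Prox1 of dentate granule cells lay between 128 and 163 CPM and Neurod6 of pyramidal cells between 263 and 319 CPM in all 11 mice. Xist was at 287 CPM or more in every female and at 1.29 CPM or less in every male, as the labels require. Of the choroid plexus markers, Ttr ran from 3.35 to 54.7 CPM and Otx2 from 0.0853 to 1.06 CPM, while Kl stayed between 21.8 and 25 CPM and Prlr between 3.48 and 4.80 CPM. The study checked its hippocampal RNA for choroid plexus by quantitative PCR of Otx2 and Prlr. Lymphocytes were barely represented: Cd3e of T cells had 7 counts and Cd79a of B cells 26 counts over all mice.

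The members spanned a wide range of levels. B2m was far above the others, with a mean of 63.7 CPM, followed by Ifi27 with 36.8 CPM and Stat2 with 34.6 CPM. Per kilobase of exon, which allows genes to be set against each other, B2m stood at 74.1 CPM per kb, Ifi27 at 25.1, H2-D1 at 8.50, Ifitm3 at 7.45 and H2-K1 at 5.53. At the other end, 13 members had a mean under 2 CPM, and Nlrc5, Usp18 and Isg15 had 5, 6 and 9 counts in their lowest mouse. The coefficient of variation over the 11 mice was under 15% for 13 members, lowest in Stat2 (6.69%), and over 30% for 9, highest in H2-Aa (117%). All 4 class II genes were among those 9, beside Psmb9, Nlrc5, Irf7, Usp18 and Bst2.

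None of the 33 members passed the test between FD and CD F1 mice. Class I genes, B2m included, and interferon-response genes had overlapping levels in both groups. The larger differences of the class II genes rested largely on 1 FD mouse. In the quasi-likelihood test of edgeR, adjusted after Benjamini and Hochberg over all 20589 genes and with a threshold of 0.1, 0 of 33 members and 14 genes in all passed (0.068%). At an unadjusted p under 0.05 it was again 0 members, against 2.59% of all genes, and DESeq2 also called 0 members. In 0 members did the levels of the 2 groups stand apart without overlap, against 0.505% of all genes. FD was higher than CD in 18 of the 33, or 54.5%, against 48.2% of all genes, and the median log2 difference was 0.0105, against -0.004 for all genes tested. The median size of the difference, leaving out its sign, was 0.0709 on the log2 scale for the members and 0.0702 for all genes. With mice paired by sex and replicate number, 23 genes passed in place of 14, with 0 members among them (smallest adjusted p of a member in edgeR, 0.488). In this paired fit 6 of 33 members (18.2%) had an unadjusted p under 0.05, against 6.76% of all genes. They were Cd74, H2-Aa and H2-Ab1, with higher values in FD (log2 differences of 0.54, 0.76 and 0.78), and Bst2, Oasl2 and Irf7, with lower ones (-0.46, -0.30 and -0.46). The 3 class II genes move together from mouse to mouse, so they are not separate observations. The labels state no pairing, and CD male 3 was left out. Pairs were taken from correlations in these same data, which ran from 0.005 to 0.386 once sex means were removed.

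**Figure D1:**
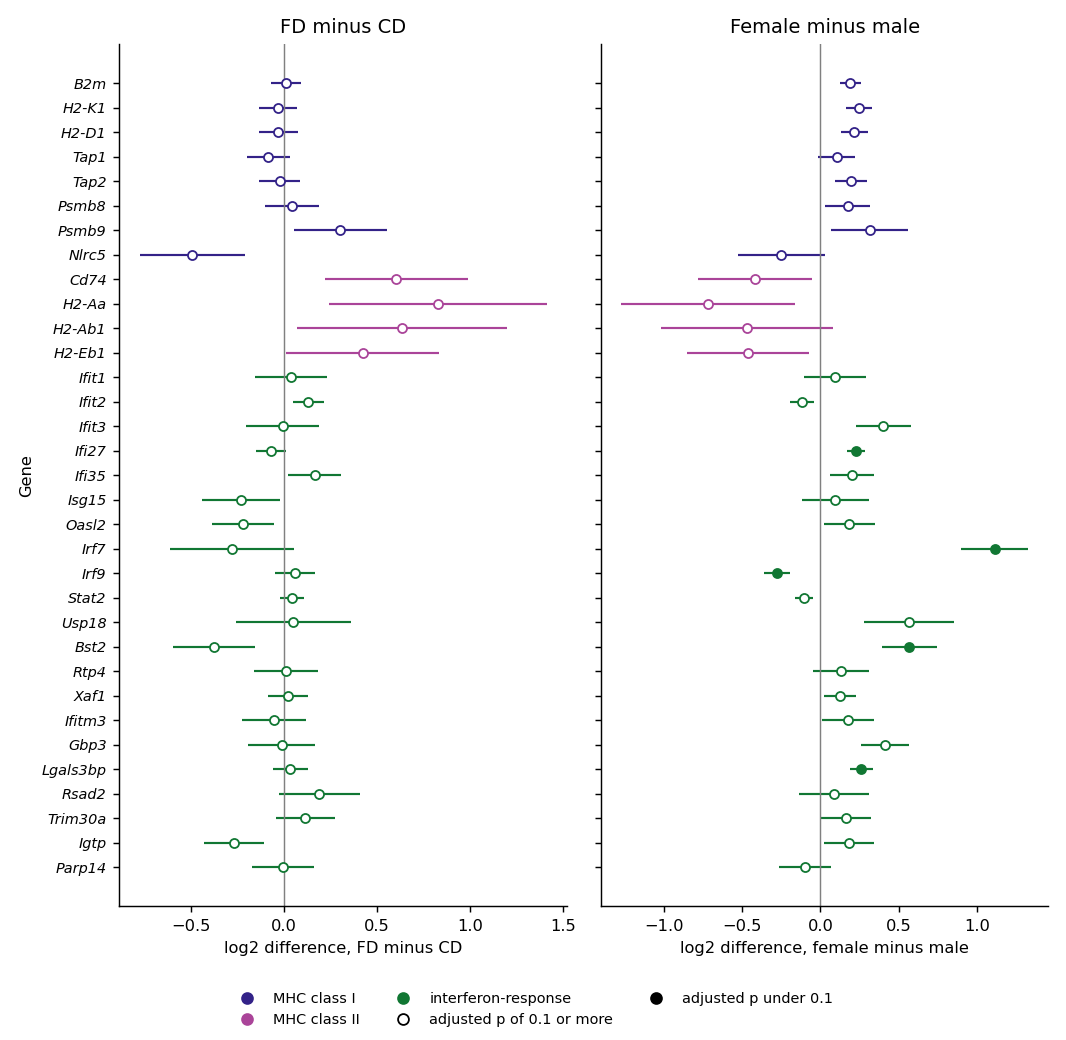
Log2 difference of each of the 33 genes with its standard error, FD minus CD on the left and female minus male on the right, coloured by group of genes. Filled points have an adjusted p under 0.1 in edgeR's quasi-likelihood test: 0 on the left and 5 on the right, all of them interferon-response genes.

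The B2m light chain is of added interest because the study used B2m as the endogenous control for quantitative PCR on these groups. Its lowest, median and highest level in the 6 CD mice was 55.2, 67.2 and 68.6 CPM. In the 5 FD mice it was 67.1 (female 1), 52.5 (male 1), 64.0 (female 2), 67.2 (male 2) and 68.6 CPM (female 3). The groups overlapped nearly fully, and in both of them the lowest values were those of males. The means were 63.6 ± 6.57 CPM (SD, n = 6) in CD and 63.9 ± 6.59 CPM (SD, n = 5) in FD, a difference of 0.291 CPM (exact permutation test, two-sided, p = 0.909). On the log2 scale it was 0.01 with a standard error of 0.08 (edgeR's quasi-likelihood test, adjusted p = 1). Paired, the FD mouse was higher in 2 of 5 pairs, with a mean difference of -1.40 CPM (exact sign-flip permutation test, p = 0.25, where 5 pairs allow no p under 0.0625). CD male 3, at 55.2 CPM, is in no pair, so the paired mean leaves it out.

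The heavy chains H2-K1 and H2-D1, which B2m joins at the cell surface, overlapped between the groups as well. H2-K1 had a lowest, median and highest level of 13.6, 16.9 and 19.3 CPM in CD mice, and 18.2, 13, 14.9, 15.8 and 17.8 CPM in FD mice in the order given for B2m. H2-D1 had 19.2, 22.4 and 24.9 CPM in CD mice and 24.4, 16.3, 20.5, 21.6 and 25.2 CPM in FD mice. FD male 1 was the lowest of all 11 mice in B2m and in both heavy chains, and the groups overlapped throughout. The log2 differences were -0.03 with a standard error of 0.10 for each. Per kilobase, B2m stood at 5.21 ± 0.275 (SD, n = 6) times the sum of H2-K1 and H2-D1 in CD and 5.42 ± 0.373 (SD, n = 5) times in FD, a difference within the spread between mice (exact permutation test, two-sided, p = 0.377).

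Of the peptide supply, Tap1 and Tap2 form the transporter that moves peptides into the endoplasmic reticulum, and Psmb8 and Psmb9 are catalytic subunits of the immunoproteasome. Their log2 differences were -0.09 ± 0.12 (SE) for Tap1, -0.02 ± 0.11 for Tap2, 0.04 ± 0.15 for Psmb8 and 0.30 ± 0.25 for Psmb9. Psmb9 varied most of these 4 and ran from 0.680 to 1.59 CPM in CD mice and from 0.952 to 2.44 CPM in FD mice, with FD female 2 at the top. Nlrc5, the transactivator of class I genes, had the largest negative difference of all members. Its levels were 0.700, 0.742 and 1.27 CPM (lowest, median, highest) in CD mice and 0.698, 1.0, 0.457, 0.354 and 0.331 CPM in FD mice. With 5 to 31 counts per mouse the groups overlapped, with FD male 1 inside the CD range and FD female 1 just below it (log2 difference -0.49 ± 0.28 SE, unadjusted p = 0.0991, adjusted p = 1 in edgeR).

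**Figure D2:**
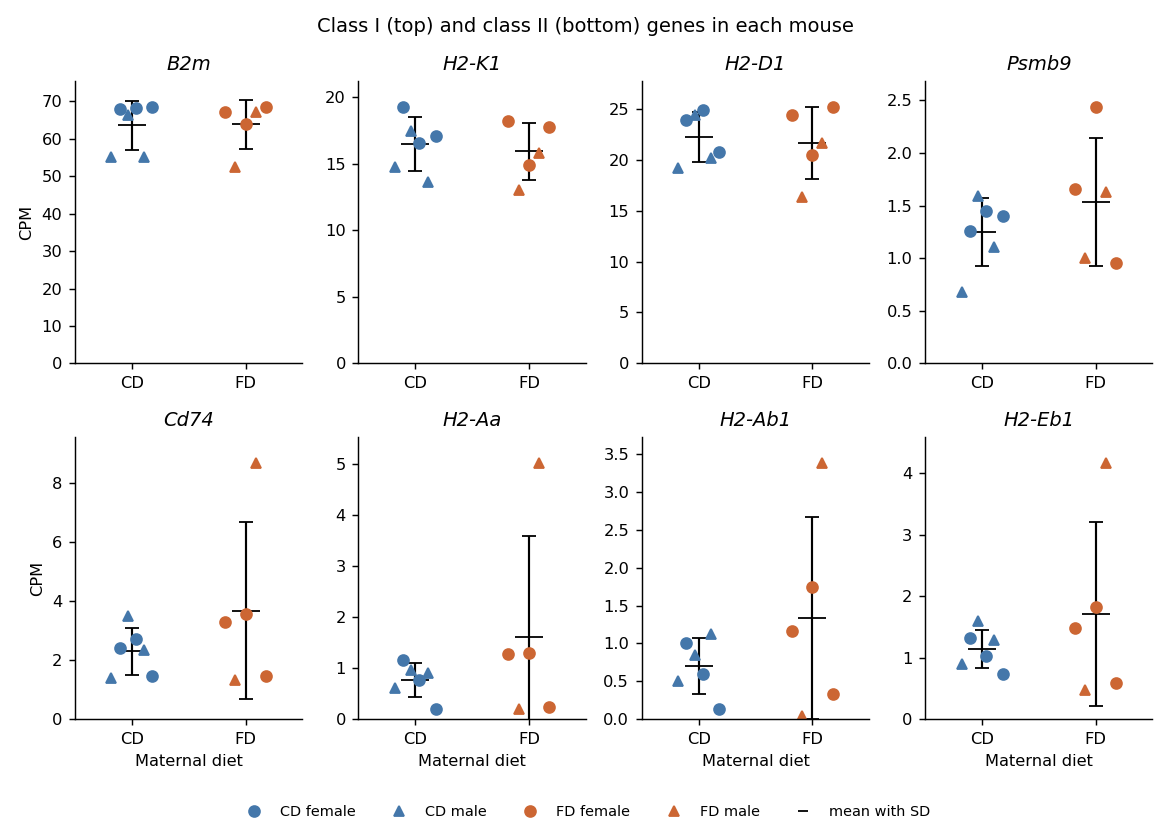
CPM of 4 class I genes (top row) and 4 class II genes (bottom row) in each mouse by maternal diet, with the mean and SD of each group (bars that would pass below 0 end there). B2m, H2-K1 and H2-D1 overlap between CD and FD, and in all 4 class II genes a single point, FD male 2, lies above the 10 other mice.

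Class II genes had the largest positive differences of the 33, none of them past the threshold. H2-Aa and H2-Ab1, the alpha and beta chains of the I-A molecule, H2-Eb1, the beta chain of I-E, and Cd74, the invariant chain that escorts class II molecules, were all higher on average in FD. H2-Aa had 0.200, 0.836 and 1.16 CPM (lowest, median, highest) in CD mice and 1.28, 0.190, 1.29, 5.02 and 0.248 CPM in FD mice in the order given for B2m. FD male 2 alone was above all CD mice by a wide margin, and FD mice also held the lowest value. The log2 difference was 0.82 ± 0.59 (SE, adjusted p = 1 in edgeR), and without FD male 2 it was -0.105. H2-Ab1 had 0.133, 0.722 and 1.13 CPM in CD mice and 1.16, 0.0476, 1.75, 3.39 and 0.331 CPM in FD mice, where the lowest value is a single read.

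Cd74, the most abundant class II member, had 1.40, 2.37 and 3.50 CPM in CD mice and 3.31, 1.33, 3.58, 8.70 and 1.45 CPM in FD mice. H2-Eb1 had 0.732, 1.16 and 1.59 CPM in CD mice and 1.48, 0.476, 1.83, 4.17 and 0.580 CPM in FD mice. The same mouse was highest in each gene and FD male 1 lowest in each, so that both ends of the range were held by FD males. FD male 2 was 3.67 times the median of the 10 other mice in Cd74, 6.01 times in H2-Aa, 4.70 times in H2-Ab1 and 3.61 times in H2-Eb1. Mean FD levels fell from 3.67 to 2.42 CPM in Cd74 and from 1.71 to 1.09 CPM in H2-Eb1 when FD male 2 was left out, beside CD means of 2.31 and 1.14 CPM. In H2-Ab1 the FD mean fell from 1.34 to 0.823 CPM, beside a CD mean of 0.702 CPM. Without that mouse the FD mean thus stayed somewhat above CD in Cd74 and H2-Ab1.

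The class II level of a mouse moved with markers of border macrophages and meningeal fibroblasts, but not with those of the choroid plexus. Border macrophage markers (7 genes, among them Mrc1, the mannose receptor, and Cd163, the haemoglobin scavenger receptor) summed to between 3.86 and 9.80 CPM in CD mice and between 4.27 and 18.5 CPM in FD mice, and FD male 2 held the highest value. Meningeal fibroblast markers (7 genes) summed to between 87.0 and 213 CPM in CD mice and between 118 and 328 CPM in FD mice, again highest in FD male 2. Endothelial markers (10 genes) were highest in that mouse too, at 367 CPM against at most 332 CPM elsewhere, and hippocampal neuron markers (10 genes) were lowest there, at 7405 CPM against 7490 CPM or more. Over the 11 mice, which share depth and scaling, the mean log2 level of the class II genes had r = 0.949 with border macrophage, 0.946 with meningeal fibroblast, 0.796 with endothelial and -0.815 with neuron markers. Without FD male 2 these were 0.916, 0.913, 0.642 and -0.706. With choroid plexus markers class II had r = -0.169 and with dendritic cell markers 0.094, and -0.266 and 0.002 without FD male 2. With lymphocyte and blood markers it was 0.604 and 0.448, and 0.255 and 0.648 without that mouse. The negative r with neuron markers was not particular to class II. It was -0.851 for the interferon-response members and -0.577 for the class I members, and -0.882 and -0.868 without FD male 2. With border macrophage markers those 2 groups had r = 0.449 and 0.171, and with microglia markers 0.555 and 0.676, where class II had -0.141. The 3 mice with the lowest summed class II level, FD male 1 (2.05 CPM), CD female 3 (2.53 CPM) and FD female 3 (2.61 CPM), were the 3 lowest in both border macrophage and meningeal fibroblast markers. The 3 mice with the highest, FD male 2 (21.3 CPM), FD female 2 (8.45 CPM) and FD female 1 (7.24 CPM), were the 3 highest in both.

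In FD male 2, 6 of the 7 border macrophage markers were the highest of all 11 mice, Mrc1 with 7 CPM against 0.999 to 5.63 CPM elsewhere and Cd163 with 2.90 CPM against 0.666 to 2.21 CPM. Markers of microglia, the resident macrophages of brain tissue, did not follow: Cx3cr1 was at 44.2 CPM in FD male 2 against 49.0 to 55.0 CPM in the others, P2ry12 at 45.5 against 41.5 to 47.3 CPM and Tmem119 at 17.1 against 15.6 to 22.2 CPM. Ciita, the transactivator of class II genes, was at 1.41 CPM in FD male 2 against 0.768 to 1.68 CPM elsewhere. Cd3e of T cells had 0 counts in this mouse. The B-cell marker Cd79a had 4 counts there, or 0.283 CPM, the highest of the 11 mice (0 to 0.228 CPM elsewhere), and Cd79b was highest there as well with 0.424 CPM from 6 counts. The part of these cells in the class II levels was not tested, and in RNA of whole tissue fewer cells of a type and less RNA per cell cannot be told apart.

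**Figure D3:**
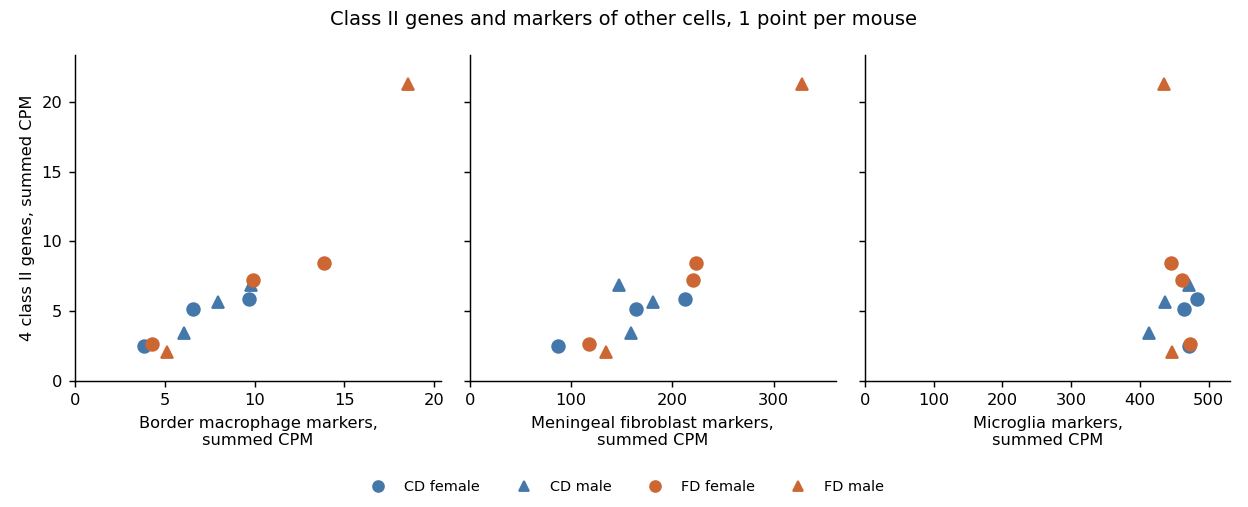
Summed CPM of the 4 class II genes (vertical) against the summed CPM of markers of border macrophages, meningeal fibroblasts and microglia (horizontal), with 1 point per mouse. Class II levels are higher toward the right of the first and second panels, with FD male 2 at the far end (21.3 CPM), while the microglia markers stay between 414 and 483 CPM.

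Among the interferon-response genes, 11 of 21 were higher and 10 lower in FD, with a median log2 difference of 0.01 and 0 past the threshold. The transcription factors of the pathway come first. Stat2 had 31.5, 34.6 and 36.7 CPM in CD mice and 34.2, 39.3, 35.3, 34.8 and 32.4 CPM in FD mice, a log2 difference of 0.04 ± 0.06 (SE). Irf9, the DNA-binding partner of STAT2, had a log2 difference of 0.06 ± 0.11, and Irf7, which amplifies interferon production, of -0.28 ± 0.33. Irf7 had 0.847, 1.24 and 2.82 CPM in CD mice and 1.54, 0.428, 1.60, 0.848 and 1.49 CPM in FD mice, and the overlap was wide.

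Of the genes that act against viral RNA, Ifit1, Ifit2 and Ifit3 had log2 differences of 0.04 ± 0.20, 0.13 ± 0.08 and -0.01 ± 0.20 (SE), Oasl2 of -0.22 ± 0.17 and Rsad2 (viperin) of 0.19 ± 0.22. Ifit2 had the tightest levels of these 5, from 7.99 to 9.21 CPM in CD mice and from 8.68 to 11.2 CPM in FD mice. Bst2, the tetherin that holds budding virus at the membrane, had the most negative difference of the interferon-response genes, -0.38 ± 0.22 (unadjusted p = 0.105, adjusted p = 1 in edgeR). Its levels were 1.17, 1.66 and 2.56 CPM in CD mice and 1.45, 0.857, 1.37, 1.56 and 1.74 CPM in FD mice, and 4 of the 5 FD mice lay inside the CD range. Ifitm3, which blocks viral entry, had a log2 difference of -0.05 ± 0.17.

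Isg15, the ubiquitin-like modifier, had a difference of -0.23 ± 0.21 and Usp18, the protease that removes it, of 0.05 ± 0.31, and neither was above 1.16 CPM in any mouse. Of the interferon-inducible GTPases, Igtp had a difference of -0.27 ± 0.16 and Gbp3 -0.01 ± 0.18. The remaining 7 members, Ifi27, Ifi35, Rtp4, Xaf1, Lgals3bp, Trim30a and Parp14, had differences between -0.07 (Ifi27) and 0.16 (Ifi35). The summed level of the 21 genes was 134 to 157 CPM in CD mice and 135 to 155 CPM in FD mice.

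The other genes of these pathways had 0 calls by diet as well. Among 29 tested class I genes outside the members, 11 were higher and 18 lower in FD, with 0 past the threshold, and the smallest p-values belonged to Erap1, the peptide-trimming aminopeptidase (0.18 ± 0.09, unadjusted p = 0.0643), H2-T10 (-0.33 ± 0.24) and Psme2 (-0.10 ± 0.08). Among 13 tested class II genes, 7 were higher and 6 lower, with 0 past the threshold, led by H2-DMb1, a chain of the class II peptide editor (0.44 ± 0.23, unadjusted p = 0.0708), Lgmn (-0.09 ± 0.06) and H2-DMa (0.12 ± 0.09). Interferon transcripts themselves were at or near 0: Ifna1, Ifna4, Ifng, Ifnl2, Ifnl3 and Ifnk had 0 counts over all mice, and Ifna2 and Ifnb1 had 2 counts each. Of the 23 receptor and signalling genes tested, 13 were higher and 10 lower in FD with 0 past the threshold, and Tlr3 (0.11 ± 0.09), Ifnar1 (0.06 ± 0.05) and Ifngr2 (-0.05 ± 0.05) had the smallest p-values. Of 59 further interferon-stimulated genes tested, 36 were higher and 23 lower in FD, with 0 past the threshold. Over these lists, in the order given, the share higher in FD was 37.9%, 53.8%, 56.5% and 61%, against 48.2% of all genes. Of the 59 genes, 2 had an unadjusted p under 0.05 in edgeR, against 2.59% of all genes. They were Mx1 (1.23 ± 0.44) and Oas2 (-0.62 ± 0.27), followed by Phf11b (-1.48 ± 0.85). Mx1 and Phf11b had at most 7 and 6 counts in any mouse.

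Between the sexes more of the members differed, and less stably. Females had 4 interferon-response genes higher and 1 lower than males, with maternal diet in the model. In edgeR's test, 5 of 33 members passed at an adjusted p under 0.1 (15.2%), against 1257 of 20589 genes (6.11%). Of all genes 3.03% were called higher in females and 3.07% lower. At an unadjusted p under 0.05 it was 10 members, against 20.3% of all genes, and in 2 members, Irf7 and Lgals3bp, the sexes did not overlap, against 1.78% of all genes. Class II genes had 0 calls and class I genes 0, with B2m (log2 difference 0.19 ± 0.06), H2-K1 (0.25 ± 0.08) and H2-D1 (0.22 ± 0.09) at adjusted p-values of 0.112, 0.113 and 0.174 in edgeR.

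Irf7 had the largest difference. Its lowest, median and highest level was 1.38, 1.57 and 2.82 CPM in the 6 females, and the 5 males had 1.04, 0.847 and 1.11 CPM (CD males 1, 2 and 3) and 0.428 and 0.848 CPM (FD males 1 and 2). Every female was above every male, by a log2 difference of 1.11 ± 0.21 (adjusted p = 0.0494 in edgeR). Lgals3bp, a secreted partner of galectin 3, had 10.7, 11.5 and 12.4 CPM in females and 9.13, 10.2, 9.12, 9.57 and 10.6 CPM in males, also without overlap though only just (0.26 ± 0.07, adjusted p = 0.0806 in edgeR).

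Bst2 had 1.37, 1.73 and 2.56 CPM in females and 1.5, 1.17, 1.58, 0.857 and 1.56 CPM in males, and the sexes overlapped (0.57 ± 0.18, adjusted p = 0.0949 in edgeR). Ifi27, an interferon-induced membrane protein, had 35.8, 38.3 and 43.9 CPM in females and 34.0, 34.0, 33, 32.1 and 36.1 CPM in males (0.23 ± 0.06, adjusted p = 0.0711 in edgeR), with 1 male inside the female range. Irf9 went the other way, with 8.86, 10.9 and 11.7 CPM in females and 11.8, 12.9, 12.2, 11.4 and 13.9 CPM in males (-0.28 ± 0.08, adjusted p = 0.0928 in edgeR). For Irf9 only FD male 1 lay inside the female range.

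**Figure D4:**
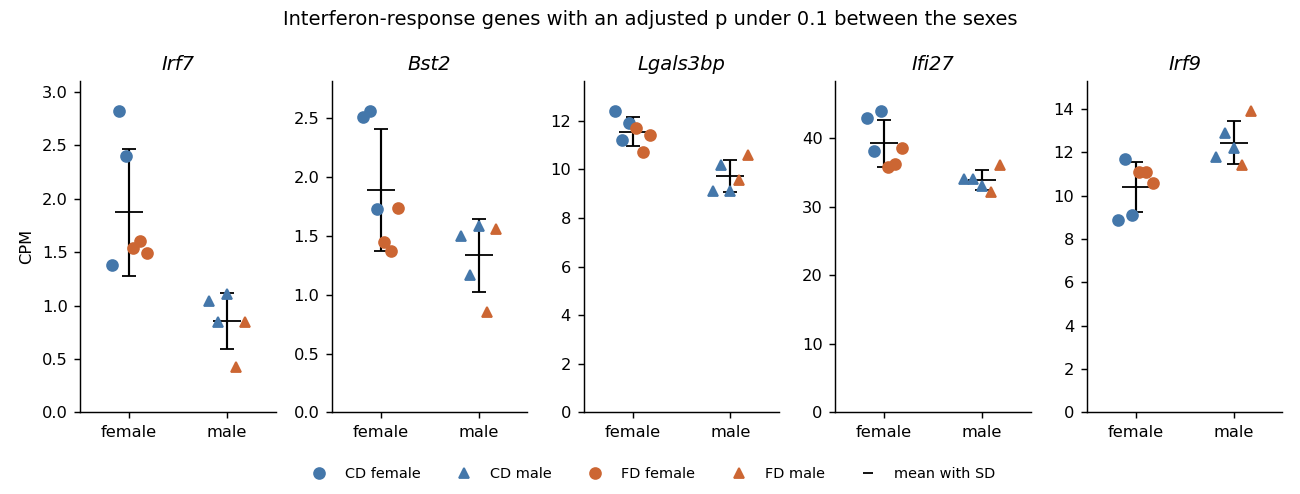
CPM of the 5 interferon-response genes with an adjusted p under 0.1 between the sexes, in each mouse, coloured by maternal diet, with the mean and SD of 6 females and 5 males. Irf7 and Lgals3bp do not overlap between the sexes, and Irf9 is lower in females.

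These calls between the sexes depended on the tool and on which mice and which covariates entered. Leaving out single mice moved the number of genes called from 1257 to between 18 and 3244 and the number of members from 5 to between 0 and 7. It was 0 members without CD male 1 (18 genes), CD female 3 (19 genes), FD male 2 (19 genes) or CD male 2 (32 genes). Irf7 was the only member called without FD female 3 (24 genes), CD female 1 (47 genes), FD female 1 (142 genes) or CD male 3 (363 genes), and Irf7 and Irf9 were called without FD male 1 (590 genes). Without CD female 2 (3244 genes) or FD female 2 (2762 genes) it was 7 members, the 5 named above with B2m and H2-K1. Within CD mice alone and within FD mice alone 0 members passed (5 genes each), with log2 differences of Irf7 of 0.99 and 1.33. DESeq2, run on all mice, called 2043 genes (9.92%) and 5 members, B2m, H2-K1, Ifi27, Irf9 and Lgals3bp. Irf7 and Bst2 were given no adjusted p by DESeq2, with log2 differences of 1.15 and 0.56.

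The share of reads that fell on no annotated gene was 8.79% ± 1.2 (SD, n = 6) in females and 10.2% ± 0.781 (SD, n = 5) in males (exact permutation test, two-sided, p = 0.0606). With this share in the model 0 members and 9 genes passed, and the log2 difference of Irf7 was 1.38 with an adjusted p of 0.118 in edgeR. Of the microglia markers 3 of 14, the complement genes C1qa, C1qb and C1qc, also passed between the sexes. Each was higher in females (log2 differences of 0.27, 0.28 and 0.31 with adjusted p-values of 0.0793, 0.0621 and 0.0665 in edgeR). Of all 14 markers 10 were higher in females. An unadjusted p under 0.05 in edgeR was found in 6 of them (42.9%), against 20.3% of all genes. Tmem119 and Olfml3 had log2 differences of 0.21 each, and Cx3cr1 and P2ry12 of 0.07 and -0.03. Summed microglia markers were 445 to 483 CPM in females and 414 to 471 CPM in males. Of the 59 further interferon-stimulated genes tested, 2 were called between the sexes (3.39%), against 6.11% of all genes. Ly6e (0.23 ± 0.05) was higher and Eif2ak2 (PKR, the kinase that halts translation on double-stranded RNA, -0.34 ± 0.11) lower in females. Among the 29 other class I, 13 other class II and 23 receptor and signalling genes tested, 0 were called. The part of read assignment and of cell makeup in these differences was not tested.

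No member was called for a diet difference that depended on sex. The interaction of diet and sex was called in 0 of 33 members and 0% of all genes by edgeR and likewise in 0 members by DESeq2. At an unadjusted p under 0.05 it was 0 members, against 1.9% of all genes. The interaction could be estimated only loosely for the class II genes, with standard errors from 0.73 (Cd74) to 1.14 (H2-Ab1) on the log2 scale.

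From mouse to mouse the class I chains moved together, and so did the class II genes. Of 11 pairs of members examined, B2m with H2-K1 had r = 0.871 (Spearman's rho = 0.727, permutation p = 0.00024 and 0.0145, adjusted over the 11 pairs 0.00088 and 0.0319), B2m with H2-D1 r = 0.840 (rho = 0.773, permutation p = 0.00049 and 0.00712, adjusted 0.00135 and 0.0196) and H2-K1 with H2-D1 r = 0.859 (rho = 0.782, permutation p = 0.00068 and 0.00647, adjusted 0.0015 and 0.0196). Without the 2 mice farthest from the median these were 0.673, 0.702 and 0.774, and with the means of diet and sex removed 0.789, 0.773 and 0.780. Of 14436 genes whose mean was 1 CPM or more, H2-K1 and H2-D1 ranked 6 and 13 in their correlation with B2m, and Lgals3bp ranked 5.

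H2-Aa with H2-Ab1 had r = 0.950 (rho = 0.973, permutation p = 1e-05 for both, the smallest that the resampling can give, adjusted 0.00011 for both), and Cd74 with H2-Aa r = 0.934 (rho = 0.900, permutation p = 0.0001 and 0.00032, adjusted 0.00055 and 0.00176). They held without the 2 mice farthest from the median, FD males 1 and 2, at 0.948 and 0.837. The immunoproteasome pair Psmb8 and Psmb9 had r = 0.661 (rho = 0.627, permutation p = 0.0245 and 0.0445, adjusted 0.045 and 0.0817), and 0.611 without 2 mice, when it no longer held (permutation p = 0.0782). Tap1 and Psmb9, which lie head to head on chromosome 17, had r = 0.372 (rho = 0.455, permutation p = 0.257 and 0.165, adjusted 0.274 and 0.181).

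Interferon-response genes were less tightly tied. Irf7 with Ifit3 had r = 0.617 (rho = 0.491, permutation p = 0.0425 and 0.132, adjusted 0.052 and 0.181), which went to 0.507 without 2 mice and 0.375 with diet and sex means removed. Ifit1 with Ifit3 had r = 0.636 (rho = 0.464, permutation p = 0.0368 and 0.154, adjusted 0.0507 and 0.181) and rested on FD males 1 and 2, without which r was 0.017. Stat2 with Irf9 had r = 0.637 (rho = 0.600, permutation p = 0.0349 and 0.0566, adjusted 0.0507 and 0.0889), 0.719 without 2 mice and 0.378 with the means removed. Irf7 with Isg15 had r = 0.362 (rho = 0.127, permutation p = 0.274 and 0.712, adjusted 0.274 and 0.712). Over all pairs within a group, which share the same 11 libraries and are given as a description, the median r was 0.942 among class II genes, 0.366 among class I genes and 0.260 among interferon-response genes, against 0.009 for all pairs of genes whose mean was 1 CPM or more.

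**Figure D5:**
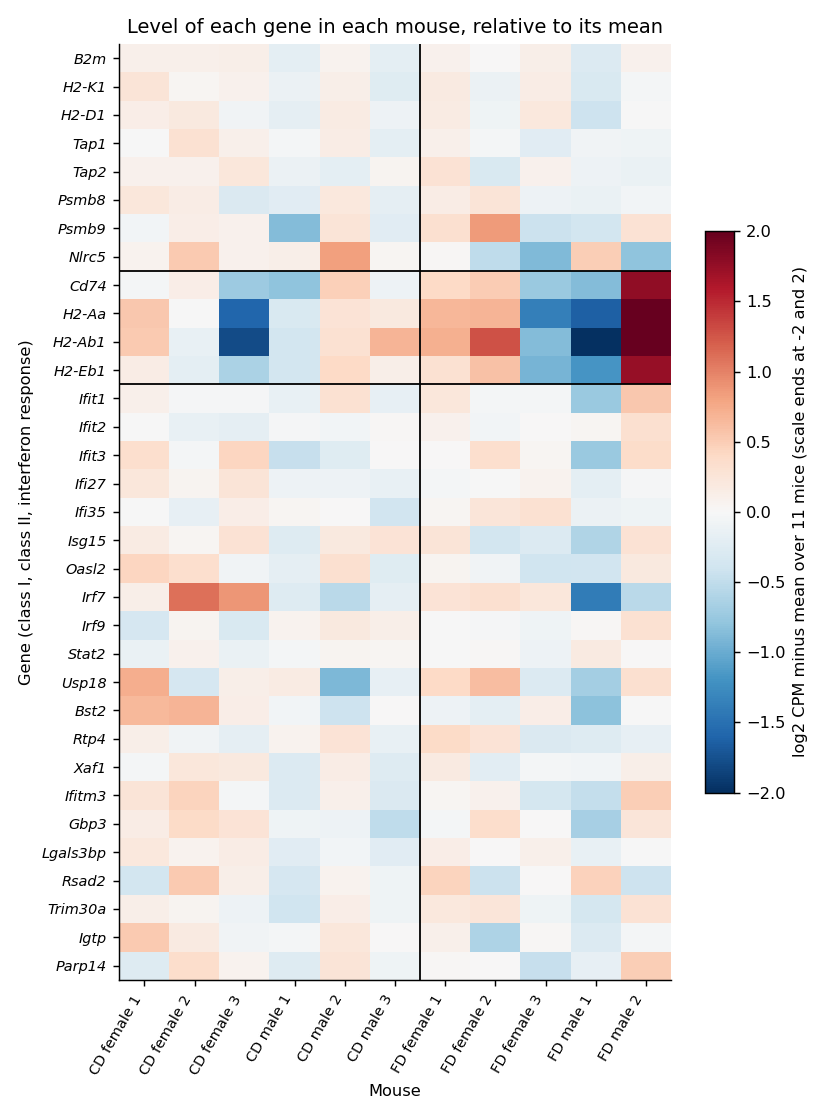
Log2 level of each of the 33 genes (rows) in each mouse (columns) relative to the mean of that gene over all mice, with lines between the 3 groups of genes and between CD and FD. The class II rows change together from mouse to mouse, highest in FD male 2 and lowest in FD male 1, and Irf7 is higher in the female than in the male columns.

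Some members could not be counted apart from near copies or neighbours. Of the 50-base windows in the transcripts of Ifit3, 51.24% also occur in Ifit3b, whose own log2 difference by diet was 0.02 ± 0.18. Shared windows made up 12.77% of H2-D1 and 9.63% of H2-K1, and the genes sharing most were H2-Q1 (5.87%) and H2-Q10 (5.18%). They made up 11.89% of Psmb8, 11.77% of Igtp (with Irgm2), 11.63% of Rtp4, 11.6% of Tap2, 10.4% of Ifi35, 10.02% of Ifitm3, 7.13% of Ifit1 and 5.98% of Trim30a (with Trim30d, 0.22 ± 0.32 by diet). B2m, Irf7, Bst2, Ifi27, Ifit2, Lgals3bp, Rsad2 and the class II genes Cd74, H2-Ab1 and H2-Eb1 shared 0 windows. Irf9 overlaps Rnf31 and Igtp overlaps Irgm2 on the same strand. Irf7 overlaps Phrf1, B2m overlaps Patl2, and Tap1 overlaps Psmb9 on opposite strands, and whether counting used strand is not given in the sources used here. Of the 33 genes 9 lie in the MHC region of chromosome 17 (B2m, on chromosome 2, and Cd74, on chromosome 18, do not).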

How the data were processed

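Hippocampal RNA of 11 mice was analysed, and the labels gave each sample's diet group, sex and replicate number. After trimming, the authors aligned reads to mm10 (GRCm38) with STAR, and they deposited raw counts of uniquely aligned reads per gene; the annotation release and the use of strand in counting are not given in the sources used here. Reads that align to several places are missing from the counts, which lowers genes with near-identical copies.

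Gene identifiers were matched to GENCODE symbols (94.91% of 38293). Genes with at least 10 counts in total were tested in R 4.3.3 with edgeR 4.0.16 (TMM, quasi-likelihood test, Benjamini-Hochberg, threshold 0.1): FD against CD without covariates (the study's methods name none), female against male with diet as covariate, and their interaction. The standard error of a log2 difference was computed as the difference over the root of the F statistic. Log2 CPM used a prior count of 2, and permutations 100000 resamples where not exact (Python 3.11.15, scipy 1.17.1). Scripts were tested on simulated counts. DESeq2 1.42.0, other normalization and filters, covariates, each sex, the replicate block and each mouse left out were alternatives.

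The members and gene lists were chosen with earlier results of these data known. Named are all 33 members, their near copies, pathway genes past a threshold, the 3 pathway genes per list with the smallest p by diet, and fixed cell markers; C1qa, C1qb, C1qc, Ciita and Xist were added after their values were seen. FD and CD mice of the same sex and replicate number correlated in their deviations from the group means (r from 0.307 to 0.540 in 5 pairs), so they were treated as pairs on the evidence of the data, not of the labels. With the mean of each sex removed the correlations were 0.005 to 0.386. CD male 3 has no FD partner and was left out of paired tests and of the replicate block.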

Additional observations from a re-analysis of the deposited data

Results flagged for a closer look

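Within the CD, FD, female and male groups, the highest or lowest mouse of each member was compared with the gap to its neighbour (Dixon's criterion at 95%). Of 132 such groups 6 stood out (4.55%), where the criterion allows 5% for independent, normally distributed values. Each mouse enters both a diet and a sex group and members vary together, so this share cannot tell whether the flags are due to chance. FD male 2 was far above the others in H2-Aa with 5.02 CPM, both among FD mice and among males, in Ifit2 among males with 11.2 CPM and in Irf9 among FD mice with 13.9 CPM. FD male 1 was far below the other FD mice in B2m with 52.5 CPM, and FD female 2 was below the other females in B2m with 64.0 CPM. The summed border macrophage and the summed meningeal fibroblast markers were also highest in FD male 2. Of the single markers Ms4a7, Dcn and Lum were not highest there. The part of these cells was not tested.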

How the results depend on the processing

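By diet 0 members passed under every alternative run. Of all genes, 14 passed as reported, 1 with at least 10 counts in every mouse (27 of 33 members tested) or in females only, 8 with edgeR's filterByExpr, 23 with the replicate block, 22 with the share of reads without a gene as covariate and 2 in males only. Without single mice it was 3 to 12. Members with a higher mean in FD numbered 18, and 11 to 24 without single mice. The replicate block changed no call of a member.

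Between the sexes 11 members and 2645 genes passed without a filter on low counts, with B2m, H2-K1 and H2-D1 among these members. With DESeq2 it was 5 members and 2043 genes, with B2m and H2-K1 among the members but neither Irf7 nor Bst2. With the share of reads without a gene as covariate it was 0 members and 9 genes, and 0 members and 5 genes in each diet alone; these 3 fits were added after seeing the data. Without single mice it was 0 to 7 members and 18 to 3244 genes. For the interaction of diet and sex 10 genes passed without the filter, and 0 to 1 without single mice.

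Small log2 differences by diet changed sign, with none past the threshold on either side. It was 0.006 for Ifit3 with DESeq2 and with filterByExpr, where Parp14 had 0.004. With the replicate block B2m had -0.032, Ifit1 -0.027, Usp18 -0.052, Rtp4 -0.038, Xaf1 -0.019 and Lgals3bp -0.018. With sex as covariate B2m had -0.010, Usp18 -0.075, Rtp4 -0.020 and Parp14 0.009. With the share of reads without a gene as covariate H2-K1 had 0.001, Tap2 0.009, Ifit3 0.022 and Gbp3 0.013. In females only B2m had -0.034, H2-D1 0.019, Usp18 -0.113, Xaf1 -0.111 and Lgals3bp -0.065. In males only Psmb8 had -0.002, Ifit1 -0.001, Ifit3 0.071, Ifi27 0.033, Rtp4 -0.252, Ifitm3 0.229, Gbp3 0.076 and Parp14 0.223. The cause was not tested.

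Without single mice log2 differences by diet ran from -0.029 to 0.074 in B2m, -0.128 to 0.119 in Gbp3, -0.105 to 1.13 in H2-Aa, -0.093 to 0.056 in H2-D1, -0.133 to 0.666 in H2-Eb1, -0.090 to 0.032 in H2-K1, -0.085 to 0.189 in Ifit1, -0.101 to 0.143 in Ifit3, -0.190 to 0.045 in Ifitm3, -0.005 to 0.113 in Irf9, -0.014 to 0.091 in Lgals3bp, -0.134 to 0.099 in Parp14, -0.005 to 0.108 in Psmb8, -0.140 to 0.091 in Rtp4, 0.000 to 0.073 in Stat2, -0.115 to 0.038 in Tap2, -0.076 to 0.303 in Usp18 and -0.033 to 0.072 in Xaf1. The difference of B2m in CPM was -1.40 in pairs and -1.40 to 3.14 without single mice, and that of the library totals was 92210 counts in pairs against -3777000 over all mice. Both paired values leave out CD male 3, which has no FD partner. A mean over pairs equals the difference of the group means over the same mice. These paired values therefore differ from the unpaired ones only by the absence of that mouse.

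Some values of r with an unadjusted permutation p under 0.05 over all mice lost it under an alternative. Without the 2 farthest mice these were Psmb8 and Psmb9 (0.611), Irf7 and Ifit3 (0.507) and Ifit1 and Ifit3 (0.017). With the means of diet and sex removed they were Irf7 and Ifit3 (0.375) and Stat2 and Irf9 (0.378). Of these pairs only Psmb8 and Psmb9 had an adjusted permutation p under 0.05 over all mice (0.045 for r). Irf7 and Isg15, with a permutation p of 0.274 over all mice, turned to -0.098 without the 2 farthest mice.

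Depth limits the members with few reads. Of the 33, 13 had a mean under 2 CPM, and a single read is worth 0.0476 CPM in FD male 1, where H2-Ab1 had 1. A p that misses the threshold does not show equal levels.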
